A study of Arabidopsis thaliana with 9 samples.

Results

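The 7 genes described here encode the enzymes and modifier proteins of glucosinolate breakdown: the myrosinases TGG1 (AT5G26000), TGG2 (AT5G25980) and PEN2 (AT2G44490), the specifier proteins ESP (AT1G54040), NSP1 (AT3G16400) and NSP5 (AT5G48180), and the modifier ESM1 (AT3G14210). They were picked by gene identifier, and all 7 of the 7 identifiers were found among the 24640 genes listed in the files. Transcripts were measured by poly(A) RNA sequencing in whole Arabidopsis thaliana seedlings of 3 genotypes, with 3 libraries each: bbx202122, the triple mutant of the B-box genes BBX20, BBX21 and BBX22; hy5, a mutant of the bZIP factor gene HY5; and wild type (WT). Only WT carries an ecotype label, Col-0. No label names an allele or the background of either mutant, so effects of another background and of the mutations cannot be told apart. All seedlings were 4 days old, stratified for 2 days at 4 °C, given a 2 h white light pulse, kept dark for 22 h and then grown at 22 °C for 3 days in red light of 80 µmol per square metre and second.

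Glucosinolates are sulfur-rich compounds of the Brassicaceae that are harmless until a myrosinase, a thioglucosidase, removes their glucose when tissue is damaged. The unstable product turns into an isothiocyanate unless a specifier protein diverts it to a nitrile or an epithionitrile. TGG1 and TGG2 are the abundant myrosinases of the shoot, stored in myrosin cells and guard cells, whereas PEN2 is an atypical myrosinase that acts on indole glucosinolates in living cells under fungal attack. ESP favours epithionitriles and nitriles, the NSP proteins favour simple nitriles, and ESM1, a protein of the GDSL lipase-like family, favours isothiocyanates over ESP-dependent nitriles. The accession Col-0 is known for low ESP activity.

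Library totals were 21.6 to 22.8 in units of 1000000 expected counts, and 20751 genes passed the filter on low counts, all 7 breakdown genes among them. Levels are given as counts per 1000000 counts (CPM) after TMM scaling, with mean ± SD over 3 libraries, and changes as fitted log2 fold changes ± SE. A gene is said to have risen or fallen at a Benjamini-Hochberg adjusted p under 0.05 in edgeR's quasi-likelihood test over all genes tested. The labels number the replicates without calling them separate cultures, so every p-value here reflects spread between libraries that may be technical. BBX21 and BBX22 fell in bbx202122 against WT, while BBX20 was at 4.1 CPM in bbx202122 and 4.57 CPM in WT (edgeR adjusted p = 0.48). HY5 was at 6.34 CPM in bbx202122, 8.23 CPM in hy5 and 16.8 CPM in WT. It fell in both mutants, by 1.40 and 1.03 on the log2 scale (edgeR adjusted p = 3e-06 and 6.3e-06), and was lower in bbx202122 than in hy5 (edgeR adjusted p = 0.049). BBX20 also fell in hy5, to 2.14 CPM (edgeR adjusted p = 3.3e-05), so neither the BBX20 nor the HY5 level marks the mutant named for that gene. The fall of BBX21 and BBX22, in contrast, was found in bbx202122 and not in hy5. Shoot markers (RBCS1A, LHCB1.3, LHCB2.1 and RCA) and 7 root markers were detected in all 3 genotypes, as whole seedlings require.

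TGG1 and TGG2 lie near each other on chromosome 5 (build TAIR10.1). TGG2 runs on the plus strand from 9072708 to 9075777 and TGG1 on the minus strand from 9079452 to 9082384, each with up to 12 exons. Their coding sequences were identical at 82.7% of aligned bases. The 250 bases upstream of each annotated gene start are shown because they carry shared stretches, at chr5:9082385-9082634 on the minus strand for TGG1 and chr5:9072458-9072707 on the plus strand for TGG2. Capitals mark runs of at least 12 bases that both windows hold on the same strand, and all sequences are written 5′ to 3′ from the RefSeq genome.
TGG1: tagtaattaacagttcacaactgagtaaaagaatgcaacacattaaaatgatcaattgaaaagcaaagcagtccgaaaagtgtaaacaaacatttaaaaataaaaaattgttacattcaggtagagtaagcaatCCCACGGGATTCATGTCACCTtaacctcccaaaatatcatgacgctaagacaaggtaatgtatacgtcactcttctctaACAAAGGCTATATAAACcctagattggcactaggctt
TGG2: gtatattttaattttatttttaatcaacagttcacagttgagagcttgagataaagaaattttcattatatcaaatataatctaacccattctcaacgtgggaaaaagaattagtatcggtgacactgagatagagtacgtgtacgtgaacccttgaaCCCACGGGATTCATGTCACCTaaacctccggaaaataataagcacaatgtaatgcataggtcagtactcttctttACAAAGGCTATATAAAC
The longer shared run of 21 bases began 116 bases upstream of TGG1 and 92 bases upstream of TGG2. The shorter run of 17 bases, which includes TATAAA, began 37 and 17 bases upstream. The letters ACGT, the core that bZIP factors such as HY5 bind, occurred 1 time in the TGG1 window and 3 times in the TGG2 window, and in none of the other 5 windows. Of 27443 protein-coding genes, 44.1% held ACGT in the same window and 6.5% held CACGTG, the G-box, which none of the 7 windows held. Both motifs read the same on either strand, and every CACGTG contains an ACGT.

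The largest changes were those of NSP5 and ESP in hy5, so their upstream windows are shown too. NSP5 lies on chromosome 5 at 19540937 to 19542760 on the minus strand with 2 exons, and its window is chr5:19542761-19543010. ESP lies on chromosome 1 at 20170715 to 20173949 on the minus strand with up to 2 exons, and its window is chr1:20173950-20174199. Capitals mark TATAAA on the sense strand, which 32.9% of all windows held.
NSP5: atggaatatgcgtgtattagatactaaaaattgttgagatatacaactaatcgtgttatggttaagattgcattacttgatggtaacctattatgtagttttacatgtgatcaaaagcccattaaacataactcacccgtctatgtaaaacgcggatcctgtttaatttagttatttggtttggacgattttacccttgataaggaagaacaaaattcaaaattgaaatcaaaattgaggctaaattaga
ESP: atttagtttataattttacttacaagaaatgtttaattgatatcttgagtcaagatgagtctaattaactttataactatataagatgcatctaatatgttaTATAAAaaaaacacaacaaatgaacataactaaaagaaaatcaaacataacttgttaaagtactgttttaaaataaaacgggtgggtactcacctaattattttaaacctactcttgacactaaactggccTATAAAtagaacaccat
TATAAA occurred 2 times in the ESP window and was not among the letters of the NSP5 window. The 2 coding sequences were identical at 63.1% of aligned bases, and those of NSP1 and ESP at 67.8%.

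Levels of different genes can be compared only per transcript length, for which the authors' FPKM values (fragments per kilobase of transcript and 1000000 mapped fragments) were used. In bbx202122 the order of FPKM levels was TGG1 (614 ± 44.1), NSP1 (602 ± 69.0), ESM1 (138 ± 8.99), PEN2 (71.7 ± 5.36), NSP5 (71.0 ± 2.87), TGG2 (42.5 ± 3.96) and ESP (10.6 ± 0.09). In hy5 NSP1 (603 ± 19.5) and TGG1 (595 ± 27.6) led, followed by ESM1 (114 ± 2.14) and NSP5 (111 ± 14.2), then PEN2 (59.1 ± 2.27), TGG2 (56.4 ± 5.38) and ESP (16.0 ± 1.75). In WT the order was TGG1 (667 ± 50.4), NSP1 (527 ± 40.7), ESM1 (109 ± 9.17), NSP5 (67.1 ± 4.76), PEN2 (59.0 ± 3.53), TGG2 (49.2 ± 3.53) and ESP (8.58 ± 0.47). Neighbours whose means differed by less than the larger of their SDs were TGG1 and NSP1 in both mutants, PEN2 and NSP5 in bbx202122, and, in hy5, ESM1 with NSP5 and PEN2 with TGG2. In all 3 genotypes TGG1 and NSP1 stood far above the other 5 and ESP stood last. Ranked by mean FPKM in WT among 20751 genes, TGG1 was number 105, NSP1 number 133 and ESP number 11318.

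**Figure D1:**
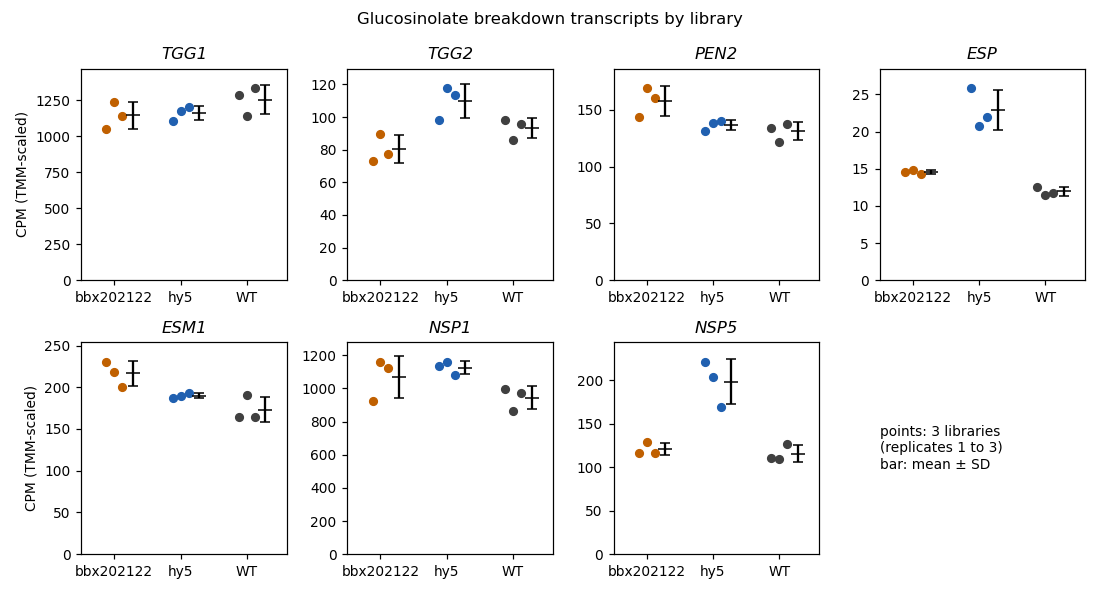
CPM (vertical axis, from 0, TMM-scaled) of the 7 genes in each of 9 libraries, with bbx202122, hy5 and WT from left to right; points are libraries and bars are mean ± SD. The 3 hy5 libraries lie above all others for NSP5 (169.9 to 221 CPM) and ESP (20.8 to 25.9 CPM), and the 3 genotypes overlap for TGG1.

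TGG1, the main shoot myrosinase, did not pass the test in either mutant. It had 1052, 1241 and 1142 CPM in the bbx202122 libraries, 1108, 1174 and 1202 CPM in the hy5 libraries, and 1285, 1144 and 1337 CPM in the WT libraries. The 3 genotypes overlapped. The log2 fold change was -0.13 ± 0.07 in bbx202122 (edgeR adjusted p = 0.26) and -0.11 ± 0.07 in hy5 (edgeR adjusted p = 0.25), and -0.02 ± 0.07 between bbx202122 and hy5 (edgeR adjusted p = 0.87).

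TGG2, the second shoot myrosinase, was lower in bbx202122 than in hy5. It stood at 73.2, 89.8 and 77.5 CPM in bbx202122, 98.2, 118 and 114 CPM in hy5, and 98.2, 86.2 and 95.7 CPM in WT. The bbx202122 libraries did not overlap those of hy5, and the lowest hy5 library was level with the highest WT library. Between bbx202122 and hy5 the log2 fold change was -0.46 ± 0.08 (edgeR adjusted p = 0.0012). Against WT, TGG2 rose in hy5 by 0.24 ± 0.08 on the log2 scale (edgeR adjusted p = 0.034) and was at -0.22 ± 0.08 in bbx202122 (edgeR adjusted p = 0.088). The call in hy5 was lost with library size as the only scaling (edgeR adjusted p = 0.085) and without hy5 replicate 2 (0.15) or 3 (0.1) or WT replicate 2 (0.15) or 3 (0.061), and TGG2 fell in bbx202122 without bbx202122 replicate 2 (edgeR adjusted p = 0.022).

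PEN2, the myrosinase of indole glucosinolates (chromosome 2, 18364652 to 18367835, plus strand, up to 11 exons), rose in bbx202122. Its levels were 144, 169 and 161 CPM in bbx202122, 131, 138 and 139.8 CPM in hy5, and 134, 122 and 137 CPM in WT. The bbx202122 libraries lay above all others, and hy5 overlapped WT. The log2 fold change was 0.27 ± 0.07 in bbx202122 against WT (edgeR adjusted p = 0.013), 0.06 ± 0.07 in hy5 against WT (edgeR adjusted p = 0.55) and 0.21 ± 0.07 in bbx202122 against hy5 (edgeR adjusted p = 0.034). The first call was lost without bbx202122 replicate 2 (edgeR adjusted p = 0.071) or WT replicate 2 (edgeR adjusted p = 0.074). The last was lost without bbx202122 replicate 2 or 3 or any hy5 library (edgeR adjusted p = 0.059 to 0.14).

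NSP5, a nitrile-specifier protein, rose in hy5. Its levels were 117, 129 and 117 CPM in bbx202122, 221, 204 and 169.9 CPM in hy5, and 110, 109.7 and 127 CPM in WT. The hy5 libraries stood clear of all 6 others, and bbx202122 overlapped WT. The log2 fold change was 0.78 ± 0.09 in hy5 against WT (edgeR adjusted p = 5.3e-06), 0.07 ± 0.09 in bbx202122 against WT (edgeR adjusted p = 0.68), and -0.72 ± 0.09 in bbx202122 against hy5 (edgeR adjusted p = 3.8e-05).

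ESP, the epithiospecifier protein, was the least abundant of the 7 transcripts and rose most. It stood at 14.5, 14.9 and 14.3 CPM in bbx202122, 25.9, 20.8 and 22.0 CPM in hy5, and 12.6, 11.5 and 11.8 CPM in WT. The 3 genotypes did not overlap, with hy5 highest and bbx202122 between hy5 and WT. In hy5 the log2 fold change against WT was 0.94 ± 0.09, a 1.91-fold level (edgeR adjusted p = 7.6e-07). In bbx202122 it was 0.29 ± 0.09 against WT (edgeR adjusted p = 0.04) and -0.65 ± 0.08 against hy5 (edgeR adjusted p = 6.6e-05). The small rise in bbx202122 missed the threshold when any 1 of the 6 bbx202122 and WT libraries was left out (edgeR adjusted p = 0.054 to 0.13) and by DESeq2 (adjusted p = 0.1).

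NSP1, the abundant nitrile-specifier protein (chromosome 3, 5566083 to 5568545, plus strand, up to 4 exons), rose in hy5 by a smaller amount. It had 922, 1159 and 1125 CPM in bbx202122, 1136, 1161 and 1082 CPM in hy5, and 999, 864 and 971 CPM in WT. The hy5 libraries lay above those of WT, and bbx202122 overlapped both. The log2 fold change was 0.25 ± 0.08 in hy5 against WT (edgeR adjusted p = 0.024), 0.18 ± 0.08 in bbx202122 against WT (edgeR adjusted p = 0.16), and -0.08 ± 0.08 in bbx202122 against hy5 (edgeR adjusted p = 0.55). The hy5 call was lost with library size as the only scaling (edgeR adjusted p = 0.056) and without hy5 replicate 1 (0.064) or 2 (0.084) or WT replicate 2 (0.12), and NSP1 rose in bbx202122 without bbx202122 replicate 1 (edgeR adjusted p = 0.019). NSP1 also shares 28.3% of its 50-base words with other genes, 27.7% with its neighbour NSP4, so its counts depend on how reads were split. With NSP1, NSP3 and NSP4 counted as 1 gene, an alternative chosen after seeing the data, the sums were 942, 1181 and 1148 CPM in bbx202122, 1149, 1179 and 1098 CPM in hy5, and 1035, 892 and 1008 CPM in WT.

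ESM1, the epithiospecifier modifier (chromosome 3, 4729399 to 4731847, plus strand, up to 6 exons), rose in bbx202122. Its levels were 231, 219 and 201 CPM in bbx202122, 187, 189 and 193 CPM in hy5, and 164, 190.3 and 165 CPM in WT. The bbx202122 libraries lay above all others, while WT replicate 2 fell within the range of hy5. The log2 fold change was 0.32 ± 0.07 in bbx202122 against WT (edgeR adjusted p = 0.0043), 0.13 ± 0.07 in hy5 against WT (edgeR adjusted p = 0.14) and 0.19 ± 0.07 in bbx202122 against hy5 (edgeR adjusted p = 0.055). Without WT replicate 2 ESM1 was called in hy5 (edgeR adjusted p = 0.027). Against hy5 it was called with library size as the only scaling (edgeR adjusted p = 0.01) and without bbx202122 replicate 3 (edgeR adjusted p = 0.029).

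In bbx202122 against WT, 3 of the 7 genes rose (PEN2, ESP and ESM1) and 0 fell, where 16.9% of all 20751 genes were called, 8.62% as higher and 8.27% as lower. In hy5 against WT, 4 of the 7 rose (ESP, NSP5, NSP1 and TGG2) and 0 fell, where 39.5% of all genes were called, 19.6% as higher and 19.8% as lower. Between bbx202122 and hy5, 4 of the 7 were called, PEN2 higher and TGG2, ESP and NSP5 lower in bbx202122, where 23.0% of all genes were called, 12.1% as higher and 10.9% as lower. The libraries did not overlap for 3 of the 7 genes in bbx202122 against WT, 4 in hy5 against WT and 5 in bbx202122 against hy5, beside 32.5%, 51.6% and 38.7% of all genes. The 4 in hy5 include TGG2, whose lowest hy5 library was level with its highest WT library (98.16 and 98.15 CPM). DESeq2 also called 0 as lower in either mutant against WT, while at an unadjusted p under 0.05 in edgeR 1 of the 7 was lower in bbx202122, TGG2, and 0 in hy5. The median log2 fold change of the 7 was 0.18 in bbx202122 and 0.24 in hy5 against WT, beside 0.01 and 0.00 over all genes tested. ESP was the 1 gene called in both mutants, and both comparisons share the WT libraries. Without WT replicate 2, the count called in bbx202122 against WT was 1, ESM1, with 10.7% of all genes called; by DESeq2 it was 2, PEN2 and ESM1, with 12.7%. Without hy5 replicate 2, the count called in hy5 against WT was 2, ESP and NSP5, with 31.8% of all genes called, and with library size as the only scaling it was the same 2, with 39.4%.

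**Figure D2:**
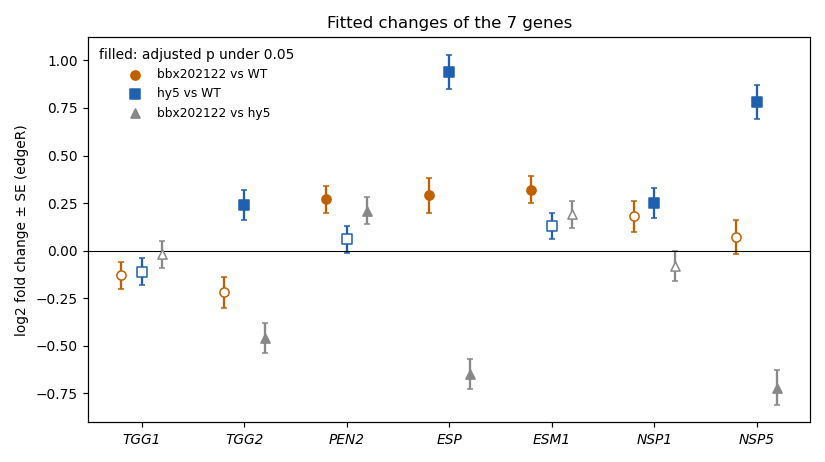
Fitted log2 fold changes ± SE (vertical axis) of the 7 genes for each mutant against WT and for bbx202122 against hy5; filled symbols have an edgeR adjusted p under 0.05. ESP and NSP5 stand apart in hy5 against WT at 0.94 and 0.78, and the other values against WT lie between -0.22 and 0.32.

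Replicates of 1 genotype varied together for several of the genes. Among WT libraries, replicate 2 had the lowest level of 6 of the 7 genes and the highest level of ESM1. Among bbx202122 libraries, replicate 2 had the highest level of the same 6 genes, and ESM1 was highest in replicate 1. In hy5, replicate 1 had the highest ESP and NSP5 and the lowest TGG1, TGG2, PEN2 and ESM1.

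The makeup of each set was described by shares of summed FPKM, which were described and not tested. No TMM scaling was applied to FPKM, which affects the sums but not the shares within a library. TGG1 made up 39.9, 39.97 and 39.02% of the summed FPKM of all 7 genes in bbx202122, 36.9, 37.9 and 39.9% in hy5 and 44.6, 43.9 and 45.9% in WT. Every library of both mutants lay below every WT library. TGG2 made up 6.44, 6.68 and 6.28% of the TGG1 and TGG2 sum in bbx202122, 8.17, 9.12 and 8.62% in hy5, and 7.01, 6.91 and 6.69% in WT. The hy5 share lay above every bbx202122 and WT library. The sum itself was 656 ± 47.8 FPKM in bbx202122, 652 ± 32.5 FPKM in hy5 and 716 ± 53.8 FPKM in WT.

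Among the 3 specifier genes NSP1 dominated, with 88.0 ± 1.11% of their summed FPKM in bbx202122, 82.6 ± 1.51% in hy5 and 87.4 ± 0.87% in WT. NSP5 held 11.5, 10.3 and 9.61% in bbx202122, 16.6, 15.2 and 13.8% in hy5, and 10.2, 11.5 and 11.9% in WT. ESP held 1.76, 1.47 and 1.45% in bbx202122, 2.41, 1.95 and 2.21% in hy5, and 1.43, 1.49 and 1.36% in WT. For both shares the hy5 libraries lay above all others, and bbx202122 overlapped WT. The sum of the 3 was 683 ± 70.7 FPKM in bbx202122, 730.4 ± 31.2 FPKM in hy5 and 603 ± 42.3 FPKM in WT.

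**Figure D3:**
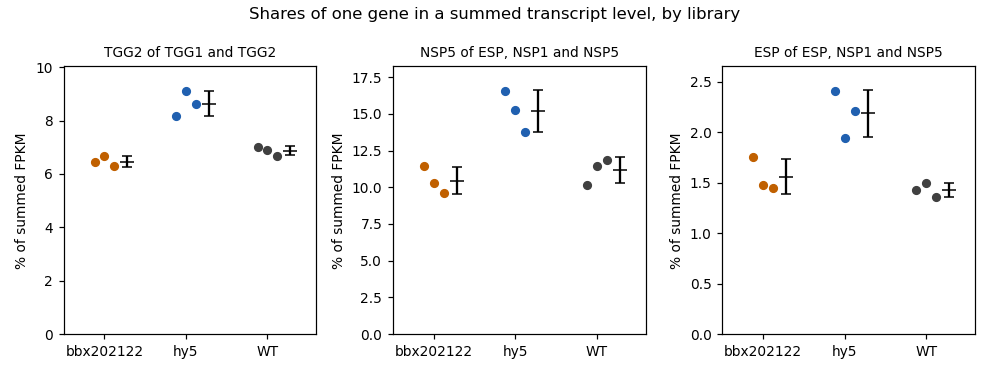
Share of TGG2 in the summed FPKM of TGG1 and TGG2, and of NSP5 and ESP in the summed FPKM of ESP, NSP1 and NSP5 (vertical axes in percent, from 0), in bbx202122, hy5 and WT from left to right; points are libraries and bars are mean ± SD. The 3 hy5 libraries lie above the 6 others in each panel, at 8.17 to 9.12%, 13.8 to 16.6% and 1.95 to 2.41%.

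Other β-glucosidase genes moved in both directions. The list held 10 genes, of which TGG3 and TGG6 had no row in the files and 8 were tested: 1 rose and 2 fell in bbx202122, and 2 rose and 2 fell in hy5, against WT. Beside this list and those below, 8.62% of all genes tested rose and 8.27% fell in bbx202122. In hy5 these shares were 19.6% and 19.8%. BGLU30, a β-glucosidase gene induced by darkness, averaged 38.9 ± 5.48 CPM in bbx202122, 82.7 ± 10.14 CPM in hy5 and 24.1 ± 5.78 CPM in WT (edgeR adjusted p = 0.004 for bbx202122 and 1.6e-07 for hy5 against WT). BGLU28, a gene induced by sulfur deficiency, averaged 7.09 ± 0.75 CPM in bbx202122, 19.0 ± 0.55 CPM in hy5 and 9.99 ± 2.24 CPM in WT, so it fell in bbx202122 (edgeR adjusted p = 0.02) and rose in hy5 (edgeR adjusted p = 2.3e-05). BGLU21 fell in both mutants, to 97.3 ± 17.0 CPM in bbx202122 and 57.95 ± 9.17 CPM in hy5, against 159 ± 13.1 CPM in WT. BGLU22 was called in hy5 (log2 fold change -0.45, edgeR adjusted p = 0.0068), and its coding sequence is identical to that of BGLU21 at 93.3% of bases, so reads may be split between them. PYK10, the abundant β-glucosidase of ER bodies, was at 4894 CPM in bbx202122, 4282 CPM in hy5 and 4376 CPM in WT and passed no test. The root myrosinase genes TGG4 and TGG5 passed none either, at -0.62 and -0.70 in bbx202122 and -0.36 and -0.26 in hy5 on the log2 scale.

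Of 8 further specifier and myrosinase-associated genes, 0 rose and 1 fell in bbx202122, and 3 rose and 2 fell in hy5, against WT by edgeR. In bbx202122, 2 were higher at an unadjusted p under 0.05 in edgeR and 1 by DESeq2. The gene that fell in bbx202122 was NSP4, at 17.1 CPM against 27.4 CPM in WT (edgeR adjusted p = 0.00083), and in hy5 it fell to 12.5 CPM (edgeR adjusted p = 3.1e-06). NSP3 fell in hy5 to 2.86 CPM, against 6.23 CPM in WT (edgeR adjusted p = 0.00014). These values carry the same doubt as NSP1, since the coding sequence of NSP1 is identical to NSP4 at 95.0% and to NSP3 at 92.2% of aligned bases. The genes that rose in hy5 were MVP1, a relative of ESM1 (0.25, edgeR adjusted p = 0.0013), PBP1, a jacalin-like protein that binds PYK10 (0.32, edgeR adjusted p = 0.0057), and the jacalin-like JAL34 (0.27, edgeR adjusted p = 0.047), as log2 fold changes. NSP2 and the myrosinase-binding protein genes MBP1 and MBP2 were at 2.57 to 7.51 CPM in all 3 genotypes and passed no test.

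Nitrilases hydrolyse nitriles, among them products of glucosinolate breakdown. NIT1 rose in hy5, at 780.1 ± 32.2 CPM against 589 ± 4.99 CPM in WT (edgeR adjusted p = 6.1e-05), and NIT2 rose to 44.7 ± 3.43 CPM in hy5, against 28.3 ± 2.94 CPM in WT (edgeR adjusted p = 3.1e-05). Both were lower in bbx202122 than in hy5 (log2 fold changes -0.38 and -0.50, edgeR adjusted p = 0.0003 and 0.00093). NIT3 fell in both mutants, by 0.31 in bbx202122 and by 0.26 in hy5 on the log2 scale (edgeR adjusted p = 0.0059 and 0.0073). The 3 nitrilase genes are tandem copies whose coding sequences are identical at 91.4% (NIT1 and NIT2) and 88.1% (NIT1 and NIT3) of aligned bases. PEN3, the ABC transporter that acts with PEN2, rose in bbx202122 to 571 ± 36.9 CPM and in hy5 to 523 ± 36.1 CPM, against 446 ± 12.7 CPM in WT (edgeR adjusted p = 0.0018 and 0.012). CYP81F2, which makes the indole glucosinolate that PEN2 acts on, rose in bbx202122 (0.72, edgeR adjusted p = 0.022) and was at 0.29 in hy5 (edgeR adjusted p = 0.29). Its level was low, at 2.46 CPM in bbx202122 against 1.49 CPM in WT, or 168 and 99 counts over 3 libraries. PCS1, the phytochelatin synthase gene of the PEN2 pathway, passed no test. In this list of 6 genes, 2 rose and 1 fell in bbx202122 and 3 rose and 1 fell in hy5, against WT by edgeR. DESeq2 called 1 higher and 1 lower in bbx202122, and 3 higher and 1 lower in hy5.

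The substrates are made by a longer pathway, whose genes were counted for comparison. Of 16 genes of aliphatic glucosinolate synthesis, 0 rose and 11 fell in bbx202122 and 0 rose and 15 fell in hy5 by edgeR, with medians of -0.54 and -4.08 on the log2 scale. DESeq2 called 0 higher and 6 lower in bbx202122 and 0 higher and 15 lower in hy5, and at an unadjusted p under 0.05 in edgeR none was higher in either mutant. Of 10 genes of indole glucosinolate synthesis, 1 rose and 3 fell in bbx202122 and 1 rose and 8 fell in hy5, with medians of -0.20 and -0.40. The glucosinolate importer genes GTR2 and GTR3 fell in hy5, and none of the 3 importer genes was called in bbx202122 by edgeR, by DESeq2 or at an unadjusted p under 0.05. Of 8 MYB and MYC regulator genes tested, 1 fell in bbx202122 (MYB29), and 3 fell (MYB28, MYB29 and MYB34) and 1 rose in hy5, and MYB76 was under the filter. The gene that rose was MYC3, named after its value was seen (log2 fold change 0.31, edgeR adjusted p = 0.0012).

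**Figure D4:**
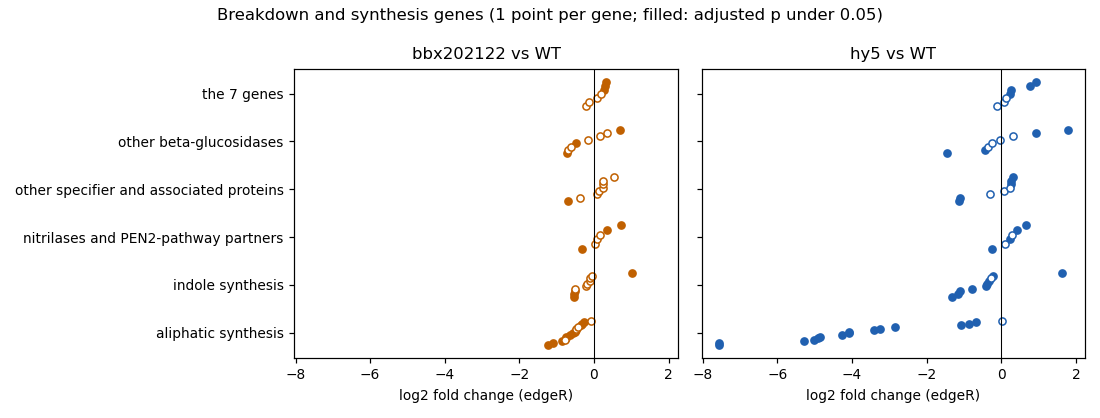
Fitted log2 fold changes (horizontal axis) for bbx202122 against WT (left) and hy5 against WT (right), with 1 point per gene tested in each list and filled points for an edgeR adjusted p under 0.05. The 7 breakdown genes lie between -0.22 and 0.94, while aliphatic synthesis genes reach -7.56 in hy5, a fitted value of BCAT4 and CYP79F1 that rests on 1 and 2 counts there and depends on the prior count.

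Tissue markers were read in the same libraries, since in bulk samples fewer cells of a type and less RNA per cell cannot be told apart. Summed over 10 guard cell and myrosin cell lineage genes, levels were 199.8 to 213 CPM in bbx202122, 176 to 183 CPM in hy5 and 194 to 209.6 CPM in WT. FAMA, the bHLH gene required for guard cells and myrosin cells, was called lower in both mutants by edgeR (adjusted p = 0.032 and 0.046). It was at 15.4 CPM in bbx202122 and 16.0 CPM in hy5, against 18.8 CPM in WT. DESeq2 called 0 of the 10 genes lower in bbx202122, so not FAMA, and 3 lower in hy5. Of these 10 markers, 1 rose and 1 fell in bbx202122 and 1 rose and 4 fell in hy5 by edgeR, and none was at 0. The marker that rose was KAT1 in both mutants, at 65.2 CPM in bbx202122 and 64.6 CPM in hy5, against 55.4 CPM in WT (edgeR adjusted p = 0.017 and 0.01). GC1, which is part of the sum, had the largest fall of the 4 in hy5, to 15.9 CPM against 34.1 CPM in WT (edgeR adjusted p = 5.5e-08). SPCH and TMM also fell in hy5, while SCRM, MUTE, MYB60, HT1 and SLAC1 passed no test. Of the 4 shoot markers, 3 fell and 0 rose in bbx202122 by edgeR and by DESeq2, with 0 higher at an unadjusted p under 0.05 in edgeR, and 1 rose and 2 fell in hy5. The marker not called in bbx202122, LHCB1.3, went the other way, at 13292 CPM against 12050 CPM in WT without overlap (log2 fold change 0.14, edgeR adjusted p = 0.17). The summed level of the 4 shoot markers was 31028 to 34114 CPM in bbx202122, 36959 to 37613 CPM in hy5 and 34894 to 38317 CPM in WT, so every bbx202122 sum lay below every WT sum. The part of guard cell, myrosin cell and shoot tissue in the values of TGG1 and TGG2 was not tested.

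Seed storage transcripts, which mark ungerminated or young seed tissue, were read in the same libraries. Summed over 6 genes, they were at 11.3, 10.08 and 20.7 CPM in bbx202122, 71.6, 45.0 and 55.3 CPM in hy5, and 12.9, 14.2 and 50.2 CPM in WT. The sums of hy5 and WT overlapped, since WT replicate 3 lay above hy5 replicate 2. WT replicate 3 had the highest NSP5 of the WT libraries, 127 CPM, and the middle ESP, 11.8 CPM. Within hy5, ESP ran in the order of the seed sums, highest in replicate 1 and lowest in replicate 2, while NSP5 was lowest in replicate 3. Of the 4 seed genes that passed the filter, 2 rose in hy5 and 0 fell by edgeR (SESA1 and CRA1, with 3 higher and 0 lower at an unadjusted p under 0.05), and DESeq2 called 0. Most of the sum in hy5 was CRA1 and CRC, at 29.7 and 21.5 CPM, while SESA1 was at 2.06 ± 1.99 CPM. OLEO1 and SESA4 were not higher in hy5, at 3.45 and 0.25 CPM against 3.74 and 0.33 CPM in WT. Of 7 root markers, 4 fell in each mutant, the root hair genes EXPA7, EXPA18, COBL9 and RHD6, and 1, CASP1 of the endodermis, rose in hy5, RHD6 and CASP1 being named after their values were seen. The summed range of the 7 was 144 to 162 CPM in bbx202122, 147 to 156 CPM in hy5 and 164 to 172 CPM in WT. The part of seed and root tissue in the breakdown genes' values was not tested.

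The genes most like each called member over the 9 libraries were found by Pearson's r of log2 CPM among 15784 tested genes averaging 5 CPM or more. These values rest on 9 libraries that share genotype and scaling. Nearest to ESP were PRA1.A3 and IAA7 (both r = 0.986) and AT1G55260 (r = 0.985). NSP5 was nearest to AT2G23070 and CXE12 (both r = 0.986) and CYP89A2 (r = 0.985). For TGG2 the nearest were OVA9 (r = 0.982), AT2G01720 (r = 0.976) and ACO3 (r = 0.967). PEN2 was nearest to AT1G31710 (r = 0.966), LYK4 (r = 0.965) and LBD38 (r = 0.958), and ESM1 to AT5G24980 (r = 0.963), AT4G13150 (r = 0.935) and PLA2-ALPHA (r = 0.920). NSP1 was nearest to AT1G09910 (r = 0.979), RABB1C (r = 0.965) and AT1G19660 (r = 0.964). No member was among the 3 genes nearest to another.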

How the data were processed

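Poly(A) RNA of 9 whole-seedling libraries was analysed, with 3 per genotype. Per the labels' protocols the libraries followed the BGISEQ-500 preparation, and the submitters' processing notes name HISAT, Bowtie2 2.2.5, RSEM 1.2.12 and the build TAIR10, with roles not stated. The deposited files give expected counts per gene, estimated by the authors and partly fractional, which were rounded to whole numbers here. They also give FPKM, scaled by the authors to transcript length and depth, used here without TMM scaling for levels of different genes, their sums and their shares. No deposited FPKM is under 0.01, and genes absent from 1 library's list were taken as 0 there.

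Counts were fitted with edgeR 4.0.16 in R 4.3.3: 1 mean per genotype over 9 libraries, TMM scaling, the filterByExpr filter and the quasi-likelihood F test, two-sided, with 6 residual degrees of freedom. The SE was taken as the absolute log2 change over the square root of F. Alternatives were RLE scaling, library size only, no filter, a replicate block, DESeq2 1.42.0 and each library left out. RNA of other tissues, depth and batch were not modelled, and the labels name no batch. No 2 replicate libraries agreed within sampling noise. Expected counts were fractional for TGG1, TGG2 and NSP1 in all 9 libraries and whole for the other 4 genes.

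The genes and lists were chosen with earlier results of these data known. Named genes are the 7, every called gene of the 3 breakdown-related lists, up to 3 called genes per other list, markers, the mutated genes and the 3 nearest genes per called member. Coordinates, promoters and symbols are those of RefSeq TAIR10.1, matched by locus identifier. Strand use in counting is not given in the sources used here, and no annotated gene overlaps the 7. A 50-base word is any run of 50 bases of a gene's spliced transcripts. Coding sequences were aligned end to end with Biopython 1.88.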

Additional observations from a re-analysis of the deposited data

How the results depend on the processing

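The 7 genes had 21 log2 fold changes over 3 comparisons, and these were recomputed 234 times under the alternatives; 206 kept their side of the threshold, 23 lost a call, 5 gained one, and none of those called in either fit changed sign. ESP and NSP5 in hy5 against WT kept their calls under all 11 alternatives, with ranges of 0.84 to 1.0 and 0.69 to 0.88, as did ESM1 in bbx202122 against WT, with 0.28 to 0.39. With library size as the only scaling, 2 of the 7 genes were called in hy5 against WT in place of 4, TGG2 (0.18) and NSP1 (0.20) being lost. Leaving out 1 library gave 1 to 3 of the 7 genes called in bbx202122 against WT, 2 to 4 in hy5 against WT and 3 to 4 in bbx202122 against hy5. Over all genes it gave 2236 to 3277, 6649 to 7407 and 3332 to 4276 calls, against 3504, 8187 and 4773 with every library. The lowest of these counts for bbx202122 against WT, 2236, came without WT replicate 2. The labels give same-numbered libraries only a shared number. Deviations from the genotype means correlated at -0.08 to 0.14 for same-numbered libraries and at -0.09 to 0.1 for differently numbered ones. Same-numbered pairs of bbx202122 and hy5 (0.14, 0.07 and 0.04) lay above their differently numbered pairs (-0.09 to 0.03). Same-numbered pairs with WT were at -0.08 to -0.02. Shared handling was not tested. With a replicate block 3, 4 and 4 of the 7 genes were called in the 3 comparisons, and 3143, 7884 and 4445 of all genes. With NSP1, NSP3 and NSP4 summed, an alternative chosen after seeing the data, NSP1 stayed on its side of the threshold in all 3 comparisons. At 11.5 to 25.9 CPM, ESP has the fewest counts of the 7.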

Other observations

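The files also give each gene's transcript length in each library, which for a gene with several annotated transcripts is a mean weighted by their abundance. For ESM1, with 2 transcripts, it was 1594, 1600 and 1594 bases in bbx202122, 1604, 1613 and 1610.1 bases in hy5, and 1589, 1600 and 1592 bases in WT. The hy5 libraries lay above all 6 others, by a few bases, and the difference was not tested. For TGG2 the length was 1908, 1909.7 and 1913 bases in bbx202122, 1879, 1889 and 1894 bases in hy5, and 1915, 1916 and 1887 bases in WT, where WT replicate 3 fell within the hy5 range. For TGG1, with 2 transcripts, it was 1889, 1888.27 and 1889 bases in bbx202122, 1885.88, 1887.29 and 1887.5 bases in hy5, and 1889, 1888.63 and 1889 bases in WT, so the hy5 libraries lay below all 6 others, by at most a few bases, which was not tested either. The lengths of ESP and NSP1 in hy5 overlapped those in WT.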
